A study of Homo sapiens with 6 samples.

Results

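The genes described here are 9 targets of the transcription factor NRF2, NQO1, HMOX1, GCLC, GCLM, TXNRD1, SRXN1, OSGIN1, AKR1B10 and AKR1C1, taken from the arrays by gene symbol of the platform annotation. That annotation gave 12 probes to 8 of these genes, of 30113 probes with 1 symbol for 20046 genes in all, and OSGIN1 was not analysed here. A probe was tested when its detection p, the scanner's measure of signal above background, was under 0.05 on at least 3 of the 6 arrays. This left 10 member probes of 7 genes among 20120 tested probes. Each of the 10 was detected on all 6 arrays, so none entered through 1 group alone.

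RNA came from HepG2, an established human liver cancer line classed in the labels as hepatocellular carcinoma. One group received sorafenib, a drug that blocks RAF kinases together with receptor tyrosine kinases, at a labelled dose of 3 mM for 24 h, and the other received the solvent DMSO alone for 24 h. The unit of the dose could not be checked from the files. Each group held 3 Illumina BeadChip arrays, and the labels do not say that these were separate cultures, so p-values measure a spread that may be technical. The mean intensity per array was 739 to 1050, and 19440 to 20138 of 47323 probes were detected. All 7 hepatocyte markers examined were detected. Of their 9 tested probes, 3 were called lower with sorafenib at an adjusted p under 0.05, those of TF, APOA1 and SERPINA1. None was called higher, and among all tested probes 9.45% were called lower. The median difference of the 9 marker probes was -0.40 on the log2 scale. The probes of AFP and TTR lay wholly above DMSO on the sorafenib arrays but did not pass (0.28 and 0.30, adjusted p = 0.0565 and 0.125). Of the 11 markers of leukocytes, endothelium and stroma, 3 were tested, CD14, CD68 and ACTA2. ACTA2, a smooth muscle actin gene, was lower with sorafenib by 0.65 on the log2 scale (adjusted p = 0.00563), and the part of these marker changes in the results was not tested.

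NRF2, encoded by NFE2L2, is held at a low level by KEAP1, which presents it to a CUL3 ubiquitin ligase for degradation. Electrophiles and oxidants modify cysteines of KEAP1, NRF2 then accumulates, pairs with a small MAF protein and binds antioxidant response elements in its target genes. The repressor BACH1 competes for many of the same elements and is best known for control of HMOX1. In liver the targets supply glutathione, reduce quinones and carbonyls, and repair oxidized thiols.

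With sorafenib, AKR1B10, SRXN1, 1 of 2 TXNRD1 probes and 1 of 2 NQO1 probes were higher, and HMOX1 was lower. The probes of GCLC and GCLM did not pass the threshold. Of the 10 member probes 4 were called higher and 1 lower at an adjusted p under 0.05, where 7.27% of all tested probes were called higher and 9.45% lower, or 16.7% in either direction. The median log2 difference, sorafenib minus DMSO, was 0.36 over the 10 probes and 0.01 over all 20120. The 3 sorafenib arrays lay wholly above the 3 DMSO arrays for 7 member probes and wholly below for 1, where 38.9% of all tested probes did not overlap, 19.2% above and 19.8% below. The members, and the gene lists below, were chosen with earlier results of these data known. Their counts and medians beside those of all probes are therefore a description and not independent evidence. Values below are background-corrected, quantile-normalized intensities on the log2 scale, and levels are not compared between probes.

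**Figure D1:**
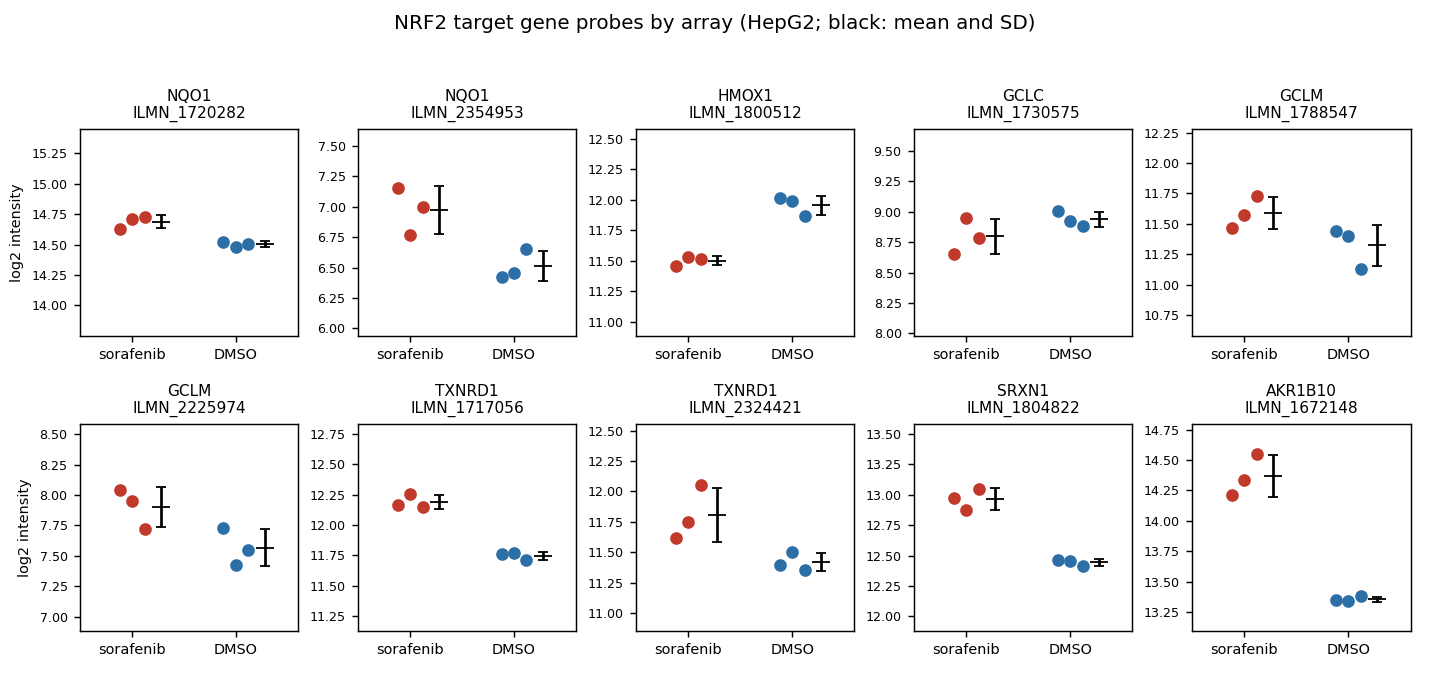
Normalized log2 intensity of each of the 10 detected member probes on each array, with sorafenib arrays in red and DMSO arrays in blue, and the mean and SD of each group in black. Each panel has its own vertical position. The groups are furthest apart for AKR1B10, and HMOX1 is the probe with all sorafenib arrays below the DMSO arrays.

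Among the enzymes that reduce carbonyls and quinones, AKR1B10 had the largest difference of the 10 member probes. It encodes an aldo-keto reductase that reduces retinal and reactive aldehydes and is often raised in liver cancer. Its probe ILMN_1672148 read 14.22, 14.33 and 14.55 on the sorafenib arrays, against 13.35, 13.34 and 13.38 on the DMSO arrays. The lowest sorafenib array stood 0.84 above the highest DMSO array. AKR1B10 rose by 1.01 ± 0.10 on the log2 scale, a 2.02-fold higher intensity (moderated SE, n = 3 arrays in each group; adjusted p = 0.00272, limma). The 95% interval of this difference was 0.76 to 1.26, and the call was kept in all 14 alternative fits, where the difference lay between 0.92 and 1.09. In size this change ranked 410 among the 20120 tested probes.

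NQO1, a quinone reductase and a widely used reporter of NRF2 activity, had 2 detected probes annotated to the same transcript. They gave unlike sizes in the reported fit. Probe ILMN_1720282, among the brightest on the arrays with raw intensities of 19198 to 30637, read 14.63, 14.71 and 14.73 with sorafenib and 14.52, 14.48 and 14.51 with DMSO. Its groups did not overlap, but the difference of 0.19 ± 0.08 (95% interval 0.01 to 0.36) did not pass the threshold (SE, n = 3; adjusted p = 0.142). Probe ILMN_2354953, a dim probe with raw intensities of 172 to 244, read 7.15, 6.77 and 6.995 with sorafenib and 6.43, 6.46 and 6.65 with DMSO. It rose by 0.46 ± 0.12 (adjusted p = 0.0482), and its nearest arrays of the 2 groups were 0.12 apart.

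That second NQO1 call was the weakest among the members. The adjusted p was 0.0513 with the replicate number as a block, 0.0584 on the values the authors processed, 0.0615 without background correction, 0.0817 with median scaling, 0.0704 with eBayes with trend and robust and 0.0868 with no filter. Leaving out DMSO replicate 1, 2 or 3 gave 0.127, 0.135 or 0.066, and leaving out sorafenib replicate 1 or 3 gave 0.117 or 0.102. The difference of ILMN_2354953 shrank to 0.22 without background correction and 0.24 on the authors' values. In these 2 settings the brighter probe ILMN_1720282 differed by 0.18 and 0.19. The brighter probe was called in 1 of its 14 alternatives, eBayes with trend and robust (adjusted p = 0.0235).

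AKR1C1, an aldo-keto reductase that reduces steroids and xenobiotic carbonyls, had 1 annotated probe, ILMN_1662507. Its signal stayed at background on every array, with detection p of 0.818 to 1 on the sorafenib arrays and 0.747 to 0.930 on the DMSO arrays. No fold is given for it, and such a probe cannot tell if AKR1C1 is transcribed. The next protein-coding gene on chromosome 10 is AKR1C2, whose coding sequence is nearly the same as that of AKR1C1, and which AKR1C transcript each probe binds was not tested.

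The other tested AKR1C probes were lower or did not differ beyond the threshold. AKR1C2 probes ILMN_1668617, ILMN_1719154 and ILMN_1730191 and AKR1C4 probe ILMN_1668880 were not tested. AKR1C2, which encodes a bile acid binding reductase of steroids, read 7.67, 7.89 and 8.18 with sorafenib and 9.16, 9.05 and 9.70 with DMSO on probe ILMN_1773417. It fell by 1.39 ± 0.20 (SE, n = 3; adjusted p = 0.00784), and the groups did not overlap. Its probe ILMN_3237488 stayed at background on all 3 sorafenib arrays and was at least 1.26-fold lower there on the background-corrected scale (group means 5.30 with sorafenib and 6.00 with DMSO; adjusted p = 0.0243). It passed the detection filter through the DMSO arrays alone, so its call adds no support to that of ILMN_1773417. This bound sets the DMSO mean against, on each sorafenib array, whichever is higher, the probe's value or the lowest detected value of that array.

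The third tested AKR1C2 probe, ILMN_2412336, differed by -0.07 ± 0.08 (adjusted p = 0.604). Its raw intensity averaged 89.9% of the array maximum, and it ranked 9 of 47323 by mean intensity, so it lay close to the top of the measured scale. AKR1C4, the liver form that acts on bile acid precursors, fell by 0.64 ± 0.11 (adjusted p = 0.0136). AKR1C3, a prostaglandin and steroid reductase, fell by 0.38 ± 0.07 (adjusted p = 0.0189).

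AKR1B15, the neighbour of AKR1B10 on chromosome 7 and closely related to it in sequence, rose by 1.33 ± 0.09 (SE, n = 3; adjusted p = 0.000633). Its probe ILMN_2278335 read 11.02, 10.93 and 11.16 with sorafenib and 9.68, 9.72 and 9.72 with DMSO. Whether that probe also binds AKR1B10 transcripts was not tested.

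Several of these calls were lost when single arrays were left out. Leaving out any one of the 6 arrays gave AKR1C3 an adjusted p of 0.0533 to 0.064, and median scaling gave it 0.0645. AKR1C4 had 0.0524 when sorafenib replicate 2 was left out. AKR1C2 probe ILMN_3237488 had 0.0686 and 0.057 when DMSO replicate 1 or 3 was left out, and 0.0722 and 0.0804 for sorafenib replicate 1 or 2. Its difference was -0.27 without background correction and -0.29 on the authors' values, smaller than the 1.26-fold bound, which therefore holds for the background-corrected values only.

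**Figure D2:**
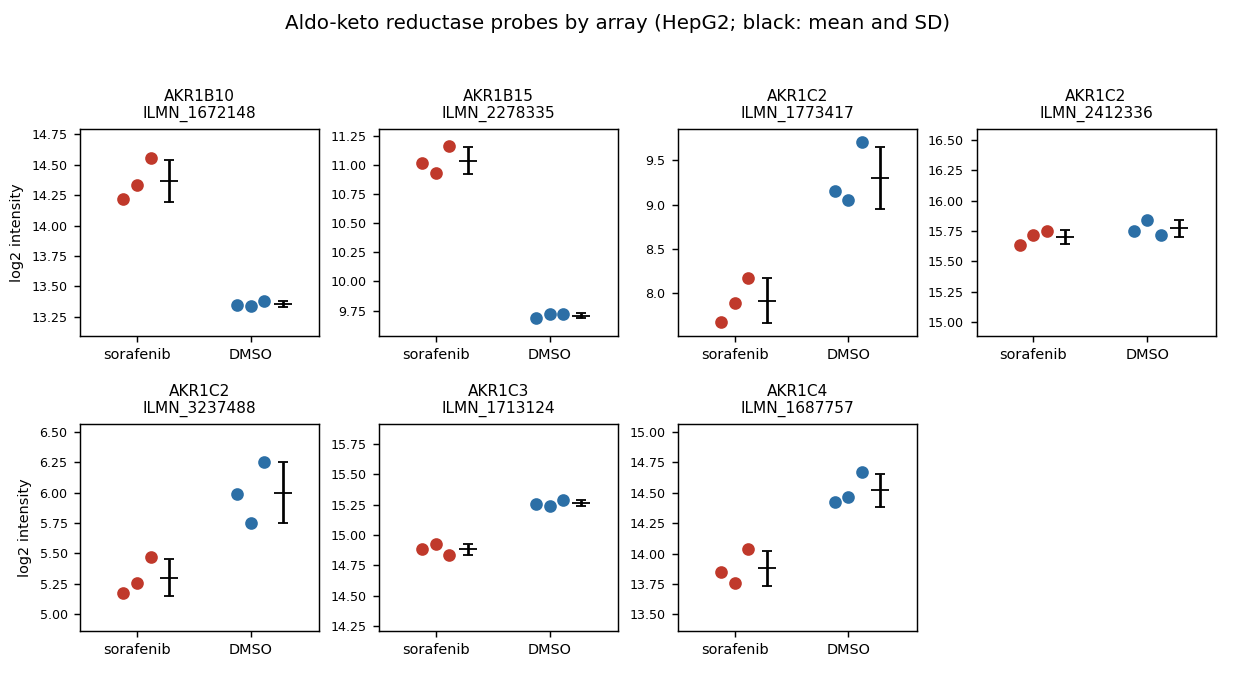
Normalized log2 intensity of the AKR1B10 probe and of the tested probes of AKR1B15, AKR1C2, AKR1C3 and AKR1C4 on each array, sorafenib in red and DMSO in blue, with mean and SD in black. The 2 AKR1B probes are higher on all sorafenib arrays, and the AKR1C2 probe ILMN_2412336 shows groups that overlap.

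Among the genes that reduce thiols, TXNRD1, the cytosolic thioredoxin reductase, had 2 detected probes annotated to different transcripts. Probe ILMN_1717056 read 12.16, 12.25 and 12.15 with sorafenib and 11.76, 11.77 and 11.71 with DMSO, a gap of 0.38 between the nearest arrays. It rose by 0.44 ± 0.08, or 1.36-fold (SE, n = 3; adjusted p = 0.0131), with a 95% interval of 0.26 to 0.62. The call was kept in 13 of 14 alternatives and missed without sorafenib replicate 2 (adjusted p = 0.056).

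The other TXNRD1 probe, ILMN_2324421, read 11.61, 11.75 and 12.05 with sorafenib and 11.40, 11.50 and 11.36 with DMSO. Its difference of 0.38 ± 0.13 was close in size but did not pass (adjusted p = 0.0841), and its sorafenib arrays spread more widely, with an SD of 0.22 against 0.06 for the first probe. This probe passed without background correction (adjusted p = 0.032), on the authors' values (adjusted p = 0.0352) and with eBayes with trend and robust (adjusted p = 0.0186).

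SRXN1 encodes sulfiredoxin, which restores over-oxidized peroxiredoxins. Its probe ILMN_1804822 read 12.97, 12.87 and 13.05 with sorafenib and 12.47, 12.45 and 12.41 with DMSO. All sorafenib arrays lay above, with 0.40 between the nearest arrays of the groups. SRXN1 rose by 0.52 ± 0.08, or 1.43-fold (SE, n = 3; adjusted p = 0.00985; 95% interval 0.32 to 0.71). The call was kept in all 14 alternatives.

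The heme oxygenase gene HMOX1, whose product opens the heme ring and which is a classical stress-induced NRF2 and BACH1 target, went the other way. Its probe ILMN_1800512 read 11.46, 11.53 and 11.51 with sorafenib and 12.01, 11.99 and 11.87 with DMSO. All sorafenib arrays lay below, by 0.34 or more. HMOX1 fell by 0.46 ± 0.08, to 0.73 of the DMSO intensity (SE, n = 3; adjusted p = 0.0138; 95% interval -0.65 to -0.27). The call was kept in 12 of 14 alternatives and lost when replicate 2 of DMSO was left out (adjusted p = 0.0568) or that of sorafenib (adjusted p = 0.0501).

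Glutathione synthesis starts with glutamate-cysteine ligase, made of the catalytic subunit GCLC and the modifier subunit GCLM, and neither gene had a called probe. GCLC probe ILMN_1730575 read 8.66, 8.95 and 8.79 with sorafenib and 9.01, 8.92 and 8.89 with DMSO, and the groups overlapped. Its difference was -0.14 ± 0.10 (SE, n = 3; adjusted p = 0.375), with a 95% interval of -0.38 to 0.10. Leaving out sorafenib replicate 1 gave -0.07, and leaving out sorafenib replicate 2 gave -0.22. The second GCLC probe, ILMN_2215194, stayed at background and was not tested.

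GCLM probe ILMN_1788547 read 11.47, 11.58 and 11.73 with sorafenib and 11.44, 11.40 and 11.13 with DMSO, with 0.03 between the nearest arrays. Its difference was 0.27 ± 0.12 (adjusted p = 0.171), and 0.17 without DMSO replicate 3. GCLM probe ILMN_2225974 read 8.04, 7.95 and 7.72 with sorafenib and 7.72, 7.42 and 7.55 with DMSO, and the groups overlapped. Its difference was 0.34 ± 0.12 (adjusted p = 0.106), and 0.22 without background correction. No alternative called a GCLC or GCLM probe, and the intervals of -0.01 to 0.55 and 0.05 to 0.63 for the GCLM probes do not show that the gene was unchanged.

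**Figure D3:**
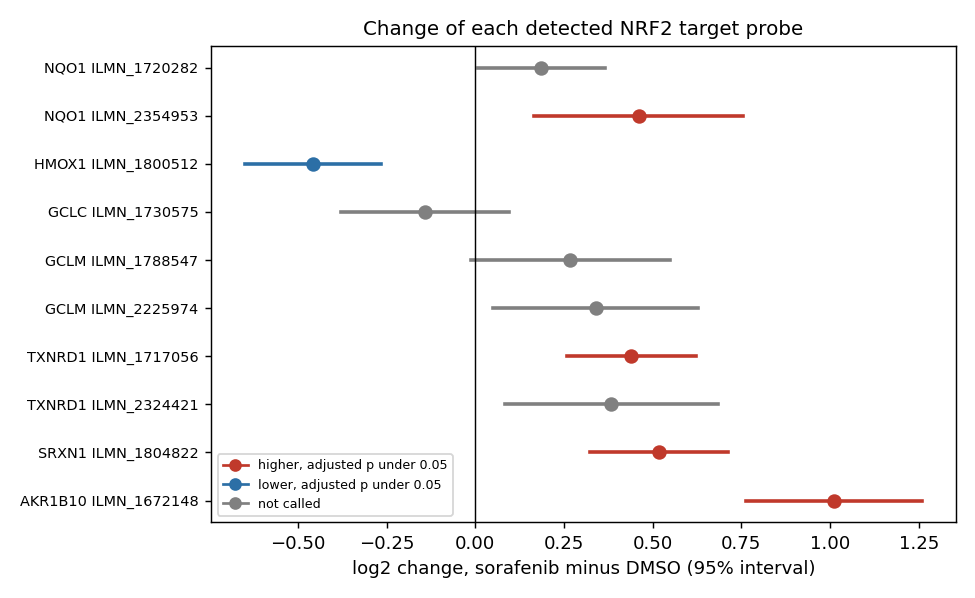
Log2 difference, sorafenib minus DMSO, of each detected member probe, with its 95% interval from the limma fit. Red marks an adjusted p under 0.05 with a rise, blue with a fall, and grey no call. AKR1B10 lies at 1.01 and HMOX1 at -0.46.

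**Figure D4:**
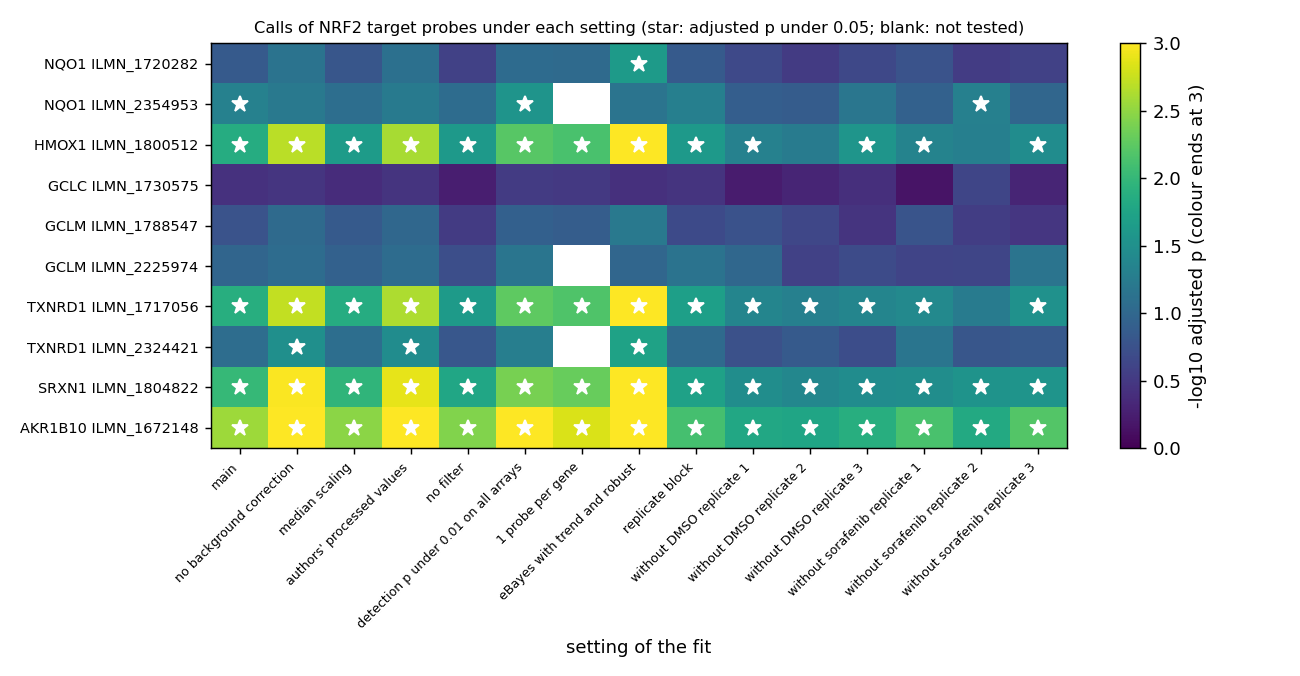
The adjusted p of each member probe, as -log10, under the reported fit and each of 14 alternatives, with a star where it was under 0.05. AKR1B10 and SRXN1 have a star in every column, and the dim NQO1 probe has 3.

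Promoter sequence was available for 7 of the 9 genes from a RefSeq table of build GRCh38.p14, as 8 windows of 250 bases before to 50 bases after a start site. HMOX1 and AKR1B10 had no entry there. The core of the antioxidant response element, TGACNNNGC, was searched on both strands. It was found in 3 of the 8 windows, the windows of GCLM and both starts of TXNRD1, and in 13.3% of the 35116 windows of the table. The AP-1 site TGACTCA, which can overlap the core, was found in the window of OSGIN1 and in 4.95% of all windows. Many known elements lie further upstream than these windows reach, and a match is only a description of letters. The windows below are those with a core match and those of NQO1 and SRXN1, whose probes include called ones. They are given 5′ to 3′ on the gene's strand, with the core matches in capitals.
TXNRD1, chr12:104215529-104215828, plus strand: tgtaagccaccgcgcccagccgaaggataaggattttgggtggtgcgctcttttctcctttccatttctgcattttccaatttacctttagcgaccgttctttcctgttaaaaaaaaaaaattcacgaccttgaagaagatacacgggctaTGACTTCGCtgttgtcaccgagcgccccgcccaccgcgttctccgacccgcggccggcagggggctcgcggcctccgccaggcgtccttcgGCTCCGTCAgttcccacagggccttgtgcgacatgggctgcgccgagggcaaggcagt
TXNRD1, chr12:104286782-104287081, plus strand: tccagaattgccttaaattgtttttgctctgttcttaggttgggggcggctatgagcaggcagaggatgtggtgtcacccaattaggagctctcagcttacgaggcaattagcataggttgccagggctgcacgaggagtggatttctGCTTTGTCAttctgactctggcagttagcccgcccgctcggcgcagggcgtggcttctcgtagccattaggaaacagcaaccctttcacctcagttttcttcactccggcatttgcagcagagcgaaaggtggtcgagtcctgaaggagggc
GCLM, chr1:93909381-93909680, minus strand: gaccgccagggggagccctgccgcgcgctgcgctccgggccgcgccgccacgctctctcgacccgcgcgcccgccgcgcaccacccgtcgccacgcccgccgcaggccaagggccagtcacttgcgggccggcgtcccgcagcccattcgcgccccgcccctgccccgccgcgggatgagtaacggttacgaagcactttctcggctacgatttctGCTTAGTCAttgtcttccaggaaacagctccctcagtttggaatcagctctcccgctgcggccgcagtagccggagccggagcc
NQO1, chr16:69726511-69726810, minus strand: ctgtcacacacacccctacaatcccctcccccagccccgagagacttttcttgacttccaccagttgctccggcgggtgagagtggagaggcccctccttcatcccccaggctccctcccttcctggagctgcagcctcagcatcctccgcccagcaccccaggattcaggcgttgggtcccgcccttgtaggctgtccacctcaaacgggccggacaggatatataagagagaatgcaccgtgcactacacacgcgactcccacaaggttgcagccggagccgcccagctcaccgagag
SRXN1, chr20:653151-653450, minus strand: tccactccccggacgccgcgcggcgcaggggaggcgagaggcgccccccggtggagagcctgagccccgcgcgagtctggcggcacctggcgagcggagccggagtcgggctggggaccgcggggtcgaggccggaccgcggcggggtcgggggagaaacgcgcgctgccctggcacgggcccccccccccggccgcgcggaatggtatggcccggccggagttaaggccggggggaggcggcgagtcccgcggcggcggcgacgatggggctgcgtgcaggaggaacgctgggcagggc

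In the GCLM window the match reads TGACTAAGC on the strand opposite to the gene and begins 34 bases before the start. In the second TXNRD1 window it reads TGACAAAGC, also on the opposite strand, and begins 102 bases before the start. The first TXNRD1 window holds TGACTTCGC on the gene's strand and TGACGGAGC on the opposite strand. Of the 2 genes with matches, TXNRD1 had a called probe and GCLM had none, and NQO1 and SRXN1 had called probes without a match in their windows.

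The regulators of the pathway were higher or not called. Of 18 tested probes of 12 regulator genes, 5 probes of 4 genes were called higher and none lower (limma), where 7.27% of all tested probes were called higher. At an unadjusted p under 0.05, 6 were higher and 1 lower, where 3166 of all 20120 tested probes were higher and 3340 lower. The median difference of the 18 probes was 0.10. NFE2L2, which encodes NRF2 itself, read 12.54, 12.54 and 12.57 with sorafenib and 12.25, 12.21 and 12.24 with DMSO. It rose by 0.32 ± 0.07 (SE, n = 3; adjusted p = 0.0294), but the adjusted p was 0.0707 to 0.0967 when any one of the 6 arrays was left out and 0.0568 with no filter. The 2 probes of KEAP1 differed by 0.01 ± 0.14 and 0.06 ± 0.12 (adjusted p = 0.959 and 0.783), and the groups overlapped for both.

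The small MAF proteins, the partners of NRF2 on DNA, had the largest rises in that list. MAFF probe ILMN_1680139 read 8.01, 7.72 and 7.70 with sorafenib and 6.25, 6.22 and 5.31 with DMSO, where it was detected on 2 of the 3 arrays. It rose by 1.88 ± 0.26 (SE, n = 3; adjusted p = 0.00636), a size that was 0.95 without background correction and 1.01 on the authors' values. The other MAFF probe, detected on 2 sorafenib arrays and 1 DMSO array, differed by 0.81 ± 0.39 (adjusted p = 0.201).

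MAFG probes ILMN_2412761 and ILMN_1692260 rose by 0.89 ± 0.17 and 0.59 ± 0.14 (adjusted p = 0.0157 and 0.0346). The first was 0.46 without background correction and 0.49 on the authors' values, and its adjusted p was 0.051 and 0.058 when DMSO replicate 1 or sorafenib replicate 2 was left out. The second had an adjusted p of 0.0558 with the replicate block and 0.0605 with no filter. Leaving out DMSO replicate 1 or 3 gave it 0.0904 or 0.0707, and leaving out sorafenib replicate 1, 2 or 3 gave it 0.0869, 0.0808 or 0.0836.

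SQSTM1, an autophagy receptor that binds KEAP1 and is also an NRF2 target, differed by 0.19 ± 0.08 (adjusted p = 0.152). SYVN1, a ubiquitin ligase of the endoplasmic reticulum that can target NRF2, rose by 0.43 ± 0.09 on probe ILMN_1803143 (adjusted p = 0.0188). Leaving out DMSO replicate 1, 2 or 3 gave this probe an adjusted p of 0.0595, 0.0633 or 0.0533, and leaving out sorafenib replicate 2 gave 0.0571. The other SYVN1 probe, ILMN_2339691, differed by 0.14 ± 0.23 (adjusted p = 0.723), and its groups overlapped. The probes of BACH1 and CUL3 stayed at background on every array, and such probes cannot tell if these genes are transcribed.

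Of the genes that take up cystine and make, use or recycle glutathione, 3 of 28 tested probes were called higher and 3 lower, or 21.4% in either direction against 16.7% of all tested probes, with a median of -0.18 against 0.01. GLRX, a glutaredoxin, read 13.59, 13.64 and 13.55 with sorafenib and 12.83, 12.85 and 12.75 with DMSO. It rose by 0.78 ± 0.08 (SE, n = 3; adjusted p = 0.00234) and kept the call in all 14 alternatives. The mitochondrial glutaredoxin GLRX2 rose by 0.51 ± 0.13 on probe ILMN_1680727 (adjusted p = 0.0428) and the secreted peroxidase GPX3 by 0.39 ± 0.09 (adjusted p = 0.0284). The other GLRX2 probe, ILMN_2258268, differed by 0.46 but did not pass (adjusted p = 0.108). SLC3A2, the shared heavy chain of the cystine transporter, fell by 0.78 ± 0.17 on probe ILMN_1679041 (adjusted p = 0.0265) and differed by -0.26 ± 0.08 on the other (adjusted p = 0.0657).

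GPX4, which reduces lipid peroxides, fell by 0.40 ± 0.10 on probe ILMN_1734353 (adjusted p = 0.0377). Its other probe, ILMN_2378952, differed by -0.37 ± 0.11 (adjusted p = 0.0631, and 0.0297 with the replicate block). GPX7, a peroxidase of the endoplasmic reticulum, fell by 0.38 ± 0.10 (adjusted p = 0.04996, and 0.0701 with the replicate block). SLC7A11, the cystine carrier and an NRF2 and ATF4 target, read 7.95, 7.98 and 7.76 with sorafenib and 7.42, 7.38 and 6.59 with DMSO. Its difference of 0.77 ± 0.23 did not pass in this fit over probes (adjusted p = 0.0627) but passed in 8 of 14 alternatives. Among these were the replicate block (adjusted p = 0.0322) and 1 probe per gene (adjusted p = 0.0459). The difference was smaller but also passed without background correction (0.45, adjusted p = 0.0189) and without DMSO replicate 3 (0.50, adjusted p = 0.0449). In the other 6 the adjusted p reached 0.158. The 2 probes of GSR, the glutathione reductase, differed by 0.15 ± 0.08 and -0.17 ± 0.21 (adjusted p = 0.238 and 0.627).

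The calls of GLRX2, GPX3, GPX4, GPX7 and SLC3A2 were each lost when DMSO replicate 2, sorafenib replicate 1 or sorafenib replicate 2 was left out (adjusted p = 0.0733 to 0.146). Those of GLRX2, GPX3, GPX4 and GPX7 were also lost when DMSO replicate 1 was left out (adjusted p = 0.0833 to 0.121) or with no filter (adjusted p = 0.0523 to 0.0918), those of GLRX2, GPX4, GPX7 and SLC3A2 when DMSO replicate 3 was (adjusted p = 0.0507 to 0.115), that of GPX7 when sorafenib replicate 3 was (adjusted p = 0.0648), and those of GPX4 and GPX7 with median scaling (adjusted p = 0.0765 and 0.0687).

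Of the genes of thioredoxin, peroxiredoxin and superoxide removal, 1 of 22 tested probes was called higher and 3 lower. This is 18.2% in either direction, against 16.7% of all tested probes. The median difference of the 22 probes was -0.13. With the replicate block 2 probes were higher, the second being SOD2 probe ILMN_2336781 (0.32, adjusted p = 0.0387), of the mitochondrial superoxide dismutase. SESN1, a sestrin induced by p53, fell by 0.90 ± 0.09 (SE, n = 3; adjusted p = 0.00256), with a kept call in all 14 alternatives. Catalase, CAT, fell by 0.89 ± 0.18 and 0.82 ± 0.18 on its 2 probes (adjusted p = 0.0207 and 0.0254). TXNIP, which binds and inhibits thioredoxin, rose by 1.01 ± 0.25 (adjusted p = 0.038). The 2 probes of TXN, the thioredoxin that TXNRD1 reduces, differed by -0.19 ± 0.08 and -0.11 ± 0.08 (adjusted p = 0.165 and 0.389).

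Leaving out sorafenib replicate 1 or 2 gave CAT probe ILMN_1651705 an adjusted p of 0.0629 or 0.0729, and probe ILMN_2151739 one of 0.0701 or 0.0826. CAT probe ILMN_2151739 also had 0.0641 or 0.0625 when DMSO replicate 2 or 3 was left out. TXNIP had an adjusted p of 0.105 or 0.112 when DMSO replicate 1 or 2 was left out, 0.078, 0.065 or 0.0797 for sorafenib replicate 1, 2 or 3, and 0.0652 with no filter.

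Of 18 tested probes for genes that supply NADPH, the reductant that NQO1, TXNRD1 and the aldo-keto reductases consume, 4 were called lower and none higher (limma). This is 22.2%, against 9.45% of all tested probes called lower and 16.7% called in either direction. The median difference of the 18 probes was -0.16. At an unadjusted p under 0.05, 1 was higher and 7 lower, where 3166 of all 20120 tested probes were higher and 3340 lower. ALDH1L1, a folate enzyme that yields NADPH, read 8.03, 8.19 and 8.46 with sorafenib and 9.38, 9.45 and 9.56 with DMSO. It fell by 1.23 ± 0.13 (SE, n = 3; adjusted p = 0.00269). The mitochondrial isocitrate dehydrogenase IDH2 fell by 0.70 ± 0.10 (adjusted p = 0.00776), and both ALDH1L1 and IDH2 kept the call in all 14 alternatives.

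The mitochondrial transhydrogenase NNT fell by 0.43 ± 0.10 on probe ILMN_1806634 (adjusted p = 0.0294) and PGLS, of the pentose phosphate pathway, by 0.37 ± 0.08 (adjusted p = 0.0239). The other NNT probe, ILMN_2336647, differed by -0.31 but did not pass (adjusted p = 0.0679). NNT probe ILMN_1806634 had an adjusted p of 0.0724, 0.0831 or 0.0834 when DMSO replicate 1, 2 or 3 was left out. It had 0.0731 or 0.0859 for sorafenib replicate 1 or 2, 0.0532 with median scaling and 0.0528 with no filter. PGLS had 0.073 or 0.0813 when DMSO replicate 1 or 2 was left out, and 0.0737 or 0.0773 for sorafenib replicate 1 or 2. The probe of ME1, the cytosolic malic enzyme, stayed at background on every array and cannot tell if ME1 is transcribed.

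The list of other genes linked to NRF2, for detoxification, export, heme and iron, had more calls lower than higher, and 16 of its 30 tested probes passed in neither direction. Of 30 tested probes of 22 genes, 13 probes of 10 genes were called lower and 1 probe, that of AKR1B15, higher, where 9.45% of all tested probes were called lower. The 13 include the AKR1C2 probe ILMN_3237488. The median difference was -0.29. ALDH1A1, a retinal dehydrogenase, fell by 1.02 ± 0.11 and 1.09 ± 0.12 on its 2 probes (SE, n = 3; adjusted p = 0.0028 and 0.00349). With the replicate block 2 probes were called higher, the second being ALDH3A1 (0.72, adjusted p = 0.00936), an aldehyde dehydrogenase. ALDH3A1 was not called in the reported fit (adjusted p = 0.147). Without sorafenib replicate 3 it was called (1.01, adjusted p = 0.0479), and in the other 12 alternatives it was not.

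**Figure D5:**
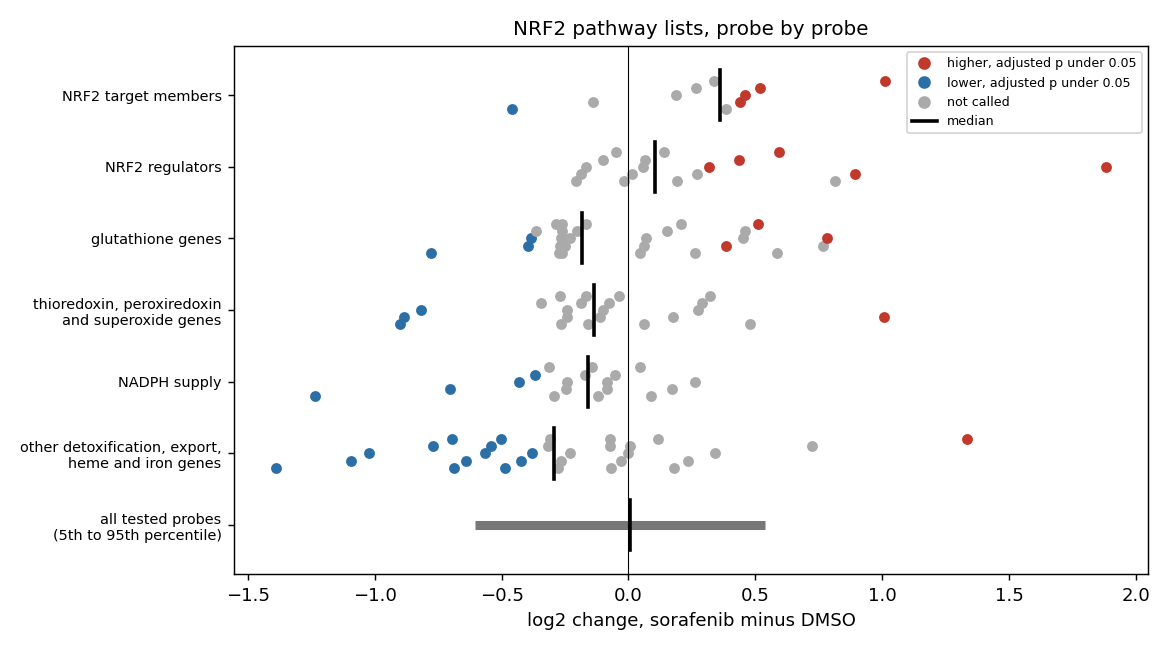
Log2 difference, sorafenib minus DMSO, of every tested probe of the member genes and of 5 lists of pathway genes, with the list median in black, and the 5th to 95th percentile of all 20120 tested probes as a grey bar from -0.60 to 0.54. The median of the members lies at 0.36, and that of the other detoxification, export, heme and iron genes at -0.29.

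The genes whose profiles over the 6 arrays were closest to the strongest rise and fall among the members were found by the root-mean-square difference of log2 values after subtracting the DMSO mean. For AKR1B10 these were LRP8, a lipoprotein receptor, at 0.06, ARSB, a lysosomal sulfatase, at 0.07, and CSGALNACT2, a chondroitin synthesis gene, at 0.08. LRP8 and ARSB rose by 1.00 and 0.93. The CSGALNACT2 probe was detected on no DMSO array and passed the filter through the sorafenib arrays alone. Its adjusted p of 0.00605 is therefore not used as support. On the background-corrected scale it was at least 1.82-fold higher with sorafenib (group means 6.51 with sorafenib and 5.48 with DMSO). For HMOX1 they were GABARAPL1, of the autophagy machinery, CAMK2D, a calcium-dependent kinase, and PARD6G, a polarity protein, each at 0.03. Those 3 fell by 0.46, 0.43 and 0.47. Each profile rests on 3 arrays a group, and nothing follows from it about shared control.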

How the data were processed

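Per the labels' protocols, HepG2 RNA was made into biotin cRNA and read on Illumina BeadChips. The authors deposited a probe intensity, not normalized, with a detection p-value beside it, per the file headers. Their processed values are log2 values, and quantile normalization of log2 intensity gave the deposited values within 5e-07. No source used here names the scanner program. No 2 arrays were identical.

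Groups and replicate numbers came from the titles. Intensities were corrected with limma's neqc (normexp, negative controls inferred from detection p, offset 16), quantile normalized and log2 transformed. Probes detected at p under 0.05 on at least 3 arrays were tested one by one with lmFit and eBayes, two-sided, Benjamini-Hochberg over 20120 probes, and called at an adjusted p under 0.05. Errors after ± are moderated SEs. Symbols came from the platform table, and 30074 of 30113 named probes were matched to RefSeq (GRCh38.p14), with 0 symbols altered. Precision is limited by the number of arrays.

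The members, gene lists and tests were chosen with earlier results of these data known. All detected member probes are named, and in each list the called probes with the 3 largest rises and falls, a set of always-named genes, 1 of which is not reported here (NFE2L2, KEAP1, BACH1, MAFF, MAFG, SQSTM1, SLC7A11, GSR, TXN, TXNIP, ME1, AKR1C2 and AKR1C3) and the profiles nearest to the strongest members. SYVN1, PGLS, AKR1C4, SOD2, ALDH3A1, CUL3 and the second probes of a gene were named after their values were seen.

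Arrays of equal number deviated together from their group means (correlations 0.273, 0.237 and 0.315, each above 0.1). No label calls them pairs, and they were paired only in the alternative fit with the replicate block. The reported fit has no block, so its p-values are unpaired. The 14 alternatives were no background correction, median scaling over tested probes, the authors' values, all probes unfiltered, a stricter filter (detection p under 0.01 on every array), 1 probe per gene, eBayes with trend and robust, the replicate block, and leaving out each of 6 arrays. On simulated data for sorafenib against DMSO, 200 of 20120 probes were changed. The fit recovered 23.4% of changes of 0.5, 71.8% of 1 and 94.5% of 2 on the log2 scale, and 4.18% of calls were false. On the arrays themselves 3364 probes were called, so these percentages may not carry over to them. R 4.3.3, limma 3.58.1, statmod 1.5.0, Python 3.11.15, pandas 2.3.3 and matplotlib 3.10.9 were used.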

Additional observations from a re-analysis of the deposited data

How the results depend on the processing

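The calls of AKR1B10 and SRXN1 were kept in all 14 alternatives, and no member probe changed direction in any of them. The member probes called higher numbered 4 in the reported fit, 3 to 5 in the alternatives, and 3 whichever array was left out. The member probes called lower, which is HMOX1 alone, numbered 0 to 1 over the fits that left out 1 array, with 0 without DMSO replicate 2 or sorafenib replicate 2. With the replicate block the members called higher were 3, without the dim NQO1 probe. The block changed no other member call.

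Counts over all probes were 1463 higher and 1901 lower. Without 1 array they were 543 to 917 higher and 877 to 1412 lower, and with no filter 915 and 1383 of 47323. They were 2030 and 2365 of 20120 without background correction, 1976 and 2343 on the authors' values, and 1424 and 1637 with median scaling. With trend and robust they were 2148 and 2467, and with the replicate block 1816 and 2249. The stricter filter gave 1792 and 2097 of 15212, and 1 probe per gene 1272 and 1649 of 11542. Over the fits without 1 array, regulators called higher were 1 to 3, glutathione probes 1 to 3 higher and 0 to 2 lower, thioredoxin and superoxide probes 0 to 1 higher and 1 to 4 lower, NADPH probes 2 to 4 lower, and other linked probes 1 to 2 higher and 5 to 10 lower.

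Calls in the lists are set beside these counts over all probes. Glutathione probes called lower numbered 9 of 28 without background correction and 8 of 28 on the authors' values. They numbered 8 of 26 with the stricter filter and 5 of 19 with 1 probe per gene. With eBayes with trend and robust they were 10 of 28, with median scaling 1 of 28 and with no filter 1 of 32. Those called higher were 5 of 28 with trend and robust and 1 of 32 with no filter. Thioredoxin and superoxide probes called higher numbered 4 of 22 without background correction and on the authors' values. The stricter filter and trend and robust also gave 4 of 22. They numbered 3 of 17 with 1 probe per gene, 2 of 22 with median scaling or the replicate block, and 0 of 29 with no filter. Those called lower were 8 of 22 with trend and robust. NADPH probes called lower were 7 of 18 with trend and robust. Other linked probes called higher were 2 of 30 with trend and robust and 2 of 30 with the replicate block. Regulators called higher were 3 of 25 with no filter. The cause of these differences was not tested. Dim probes such as those of MAFF, MAFG and the second NQO1 probe gave changes that depended on the background correction. Changes of about 0.5 were mostly uncalled in a simulation with 200 changed probes. On the arrays 3364 probes were called, so the simulation does not give the share of such changes missed there.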

Other observations

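Differences between arrays of equal replicate number, sorafenib minus DMSO, were uneven for some member probes. For GCLC probe ILMN_1730575, the one tested member probe with both signs, they were -0.35, 0.03 and -0.10 on the log2 scale for replicates 1, 2 and 3. For GCLM probe ILMN_1788547 they were 0.03, 0.17 and 0.60, for TXNRD1 probe ILMN_2324421 they were 0.21, 0.24 and 0.69, and for the dim NQO1 probe ILMN_2354953 they were 0.73, 0.31 and 0.34. For SRXN1 they were 0.50, 0.42 and 0.63 and for HMOX1 -0.56, -0.46 and -0.35, so the direction was shared by all 3.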
